A study of Mus musculus with 9 samples.

Results

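The 40 genes described here make and handle lipid, and were measured in RAW264.7, a mouse line resembling macrophages. They are 18 enzymes of sterol synthesis, 8 enzymes of fatty acid synthesis, 5 genes of SREBP control, 3 genes of sterol transport, esterification and ketone metabolism, 2 cholesterol efflux transporters, and 4 genes of LXR receptors and other LXR targets. They were chosen by symbol from a list of known lipid genes, and all 40 were found among the 12474 gene rows of the 9 libraries. The cells were wild type and RNA was selected for poly(A). Mock cells, with 3 libraries, were the unpolarized reference. M1 cells, also with 3 libraries, were polarized towards the inflammatory M1 state with 100 ng/ml of lipopolysaccharide (LPS) and 50 ng/ml of murine interferon gamma. I cells, again with 3 libraries, had the same polarization with 20 mM potassium iodide present. The labels give neither the duration of polarization nor a group with another salt, so effects of iodide, of potassium and of osmolarity cannot be told apart, and no group received iodide without polarization. Whether the libraries of a group are separate cultures is not in the labels either. The p-values therefore reflect spread among these libraries, possibly technical spread.

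Values are FPKM, fragments scaled by gene length and by the library's total, so levels of different genes are comparable per length. The libraries held 17431070 to 25470730 fragments, so that for a 1 kb gene a single fragment adds 0.0393 to 0.0574 FPKM. Across genes, libraries of a group correlated with Pearson r of 0.9968 to 0.9973 on the log2 scale, and genes are not independent replicates. All 9 macrophage markers listed were present, and their summed level was 4718 to 4807 FPKM in Mock, against 3347 to 3457 in M1 and 2454 to 2567 in I. Most of the Mock sum was the lysozyme gene Lyz2, with means of 3155 FPKM in Mock, then 1138 in M1 and 675 in I. Without Lyz2 the other 8 markers summed to 1594 to 1612 FPKM in Mock, against 2233 to 2283 in M1 and 1796 to 1865 in I. Of the 9 markers, 4 rose and 5 fell in M1 against Mock, and 2 rose and 7 fell in I against M1. The M1 marker Nos2 stood at 1428 to 1456 FPKM in M1 and at 2047 to 2086 in I. Of the 23 markers listed for fibroblasts, epithelial cells, T cells, B cells, neutrophils, dendritic cells, adipocytes and hepatocytes, 19 are not analysed here and 4 were measured. The T cell gene Lck was at 3.29 to 5.26 FPKM over all libraries, and the 2 dendritic cell genes measured summed to 0.149 to 0.348 FPKM. Fabp4, listed here under adipocytes and hepatocytes, was at 0.806 to 0.882 FPKM in Mock, against 15.0 to 16.1 in M1 and 9.93 to 10.4 in I. The part of these marker differences in the results below was not tested. In RNA from whole cultures, fewer cells of a type and less RNA per cell cannot be told apart.

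Cells make cholesterol from acetyl-CoA through mevalonate and squalene, and fatty acids from the same precursor through malonyl-CoA. Both routes are switched on by the SREBP transcription factors, which Scap carries from the endoplasmic reticulum to the Golgi for cleavage and which Insig proteins hold back when sterols are plentiful. SREBP-2, from Srebf2, is best known for driving sterol genes, and SREBP-1, from Srebf1, for driving fatty acid genes. The liver X receptors (LXRs) sense oxidized sterols and switch on cholesterol export through Abca1 and Abcg1, and also Srebf1 and several fatty acid genes. In macrophages these circuits set how much cholesterol is kept, esterified or exported, and they are known to be reshaped by inflammatory signals.

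Promoter sequence is shown for 1 gene of each arm, so that the members can be seen beside the letters through which such factors are known to act. RefSeq starts were matched for 31 of the 40 genes, with 40 promoters of 250 bases before the start. Both strands were searched for TCACNCCAC, a form of the sterol regulatory element bound by SREBPs, for CCAAT, bound by the SREBP partner NF-Y, and for the LXR element DR4, a direct repeat of AGGTCA spaced by 4 bases. TCACNCCAC was found in 1 of the 40 promoters, that of Hmgcs1, and in 1.05% of 32851 mouse promoters. CCAAT was found in 24 of the 40 (60%), in 14 of 18 promoters of sterol enzymes (77.8%), in 2 of 5 of fatty acid enzymes (40%) and in 33.8% of all mouse promoters. The exact DR4 letters were found in 0 of the 40 and in 5 of the 32851 mouse promoters (0.0152%). Repeats that differ from these letters at any base were not searched. A count of 0 therefore does not show that LXR elements are absent. A match is a description of letters and not a binding site, and matches outside this window were not searched. Hmgcs1 was printed for its TCACNCCAC match, and Fasn and Abca1 were added after their values had been seen. Sequences run 5′ to 3′ on the gene's strand in GRCm38, at chr13:119690101-119690350 (+) for Hmgcs1, chr11:120824548-120824797 (−) for Fasn and chr4:53159896-53160145 (−) for Abca1, with matches in capitals.
Hmgcs1: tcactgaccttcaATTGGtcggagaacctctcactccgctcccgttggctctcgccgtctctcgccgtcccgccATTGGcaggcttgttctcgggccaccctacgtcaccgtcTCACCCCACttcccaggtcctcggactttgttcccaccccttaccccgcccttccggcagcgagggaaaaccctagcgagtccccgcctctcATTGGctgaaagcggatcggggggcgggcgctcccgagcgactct
Fasn: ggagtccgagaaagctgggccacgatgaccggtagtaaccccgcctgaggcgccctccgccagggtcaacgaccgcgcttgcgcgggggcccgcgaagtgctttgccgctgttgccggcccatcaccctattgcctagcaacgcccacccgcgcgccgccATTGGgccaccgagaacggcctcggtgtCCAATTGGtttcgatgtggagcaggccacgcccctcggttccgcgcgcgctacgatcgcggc
Abca1: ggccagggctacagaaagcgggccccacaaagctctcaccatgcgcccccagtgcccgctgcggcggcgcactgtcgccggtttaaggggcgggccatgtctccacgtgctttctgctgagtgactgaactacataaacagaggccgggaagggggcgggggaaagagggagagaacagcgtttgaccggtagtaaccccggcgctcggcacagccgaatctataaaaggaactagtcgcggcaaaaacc
In Hmgcs1 the TCACNCCAC match begins 137 bases before the start, and CCAAT lies on the opposite strand (printed as ATTGG) at 237, 176 and 45 bases. In Fasn, CCAAT lies on the printed strand at 62 bases and on the opposite strand at 90 and 59 bases, the matches at 62 and 59 overlapping each other. The Abca1 window held no exact match to any of the 3 motifs, and whether it holds an inexact form of the LXR element was not tested.

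Polarization was followed by a split within lipid synthesis. All 8 fatty acid enzymes and both efflux transporters fell in M1, while sterol enzymes were divided, 8 higher, 4 lower and 6 not called. Over the 40 genes, 12 rose and 22 fell in M1 against Mock (limma, adjusted p under 0.05), where 30.5% of all 11156 tested genes rose and 55.3% fell. The median log2 change of M1 against Mock was −0.23 over all tested genes and −0.18 over the 40. It was 0.15 for sterol enzymes, which is 0.38 above the median of all genes, and −1.28 for fatty acid enzymes, which is 1.05 below it. The zero point of this comparison moves with the scaling. With median-of-ratios (RLE) scaling the median of all genes was 0.025, and 51.3% of all calls were higher in place of 35.6%. RLE scaling gave 14 sterol enzymes higher and 1 lower, and 0 fatty acid enzymes higher and 7 lower. The sterol median stood 0.35 above that of all genes in that fit.

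Potassium iodide during polarization was accompanied by lower sterol enzymes and higher efflux transporters. In I against M1, 8 of the 40 genes rose and 23 fell, where 24.9% of all tested genes rose and 39.3% fell. Of the 18 sterol enzymes, 1 rose, 14 fell and 3 were not called, with a median log2 difference of −0.28 against −0.07 for all tested genes. With RLE scaling 2 sterol enzymes rose and 11 fell. Of the fatty acid enzymes, 2 rose, 5 fell and 1 was not called, and with RLE scaling 3 rose and 4 fell. Both efflux transporters rose with either scaling. Against Mock, 10 of the 40 genes were higher in I and 25 lower, where 28.2% of all tested genes were higher and 58.6% lower. All 8 fatty acid enzymes were lower in I than in Mock, with a median log2 difference of −1.45. Each group of libraries serves in 2 of these comparisons, so the comparisons are not independent, and levels are given side by side below.

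**Figure D1:**
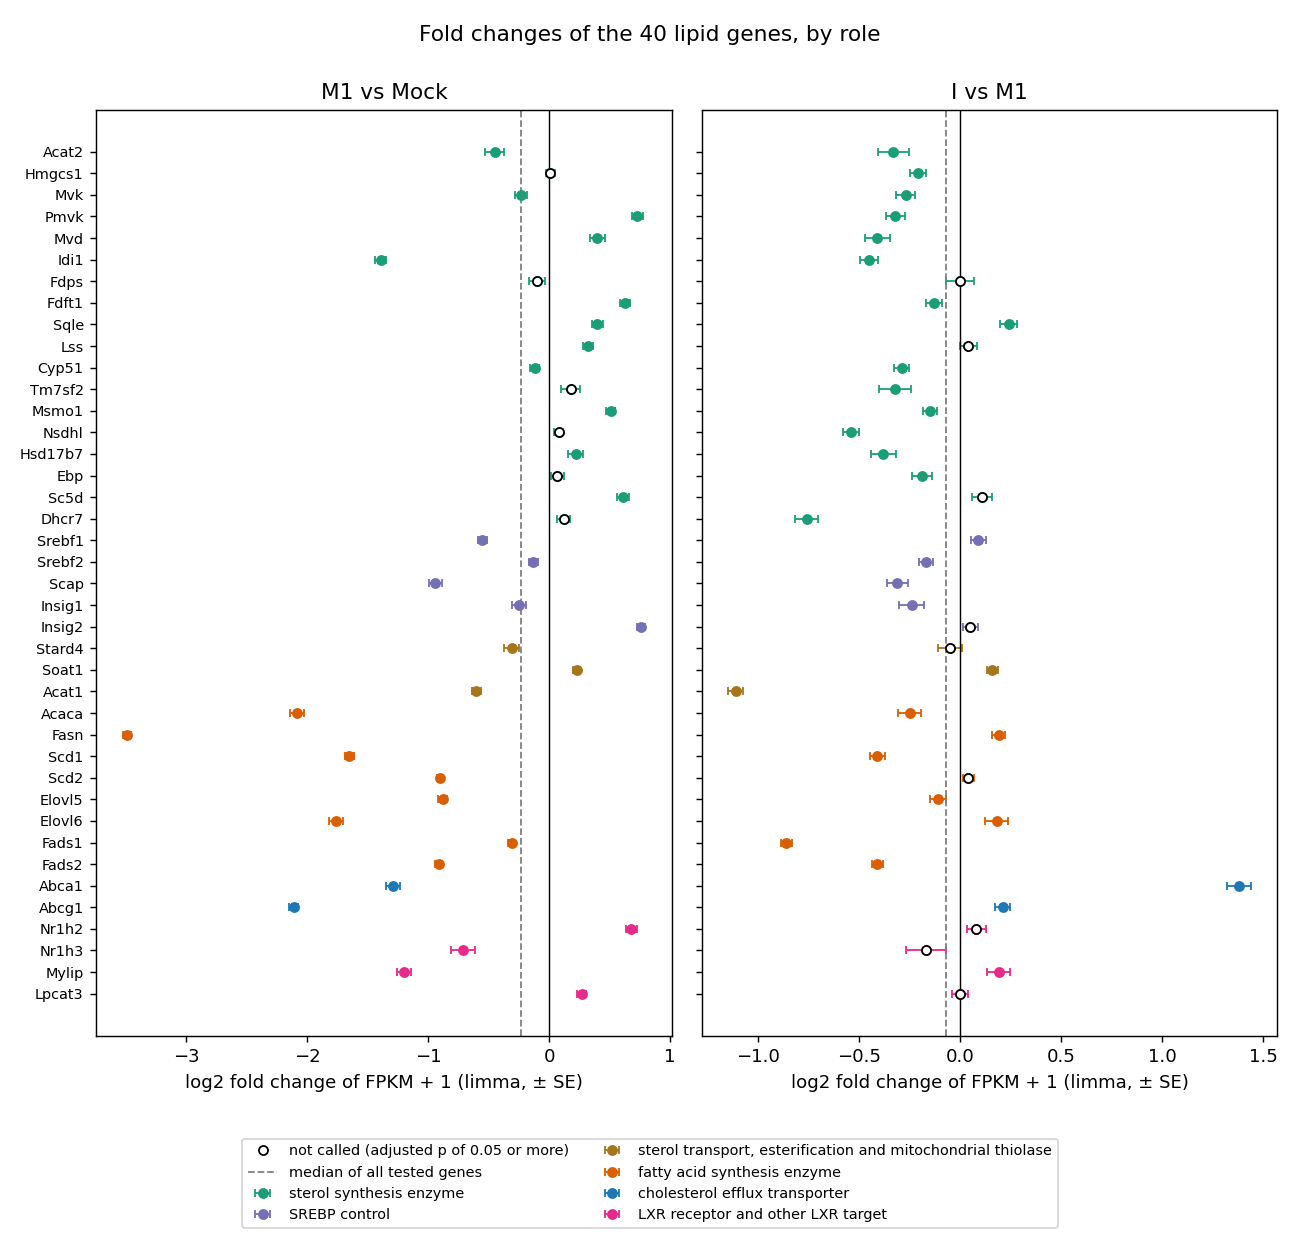
Log2 fold change of each of the 40 genes, on the log2(FPKM + 1) scale, for M1 against Mock and for I against M1, grouped by role, with filled points for called genes, open points for the others, bars for the standard error and a dashed line at the median of all tested genes. In M1 against Mock the fatty acid enzymes and efflux transporters all lie left of the median of all tested genes (−0.23), while most sterol enzymes lie right of it. In this scaling Mvk, Cyp51, Srebf2 and Insig1 lie below zero in M1 against Mock, and with RLE scaling above it.

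Fatty acid synthesis lost most of its transcripts at its committing and chain-building steps. Fasn (ENSMUSG00000025153.9, chromosome 11, 120805846 to 120824547, minus strand) encodes fatty acid synthase, which builds palmitate from malonyl-CoA. Its level was 85.8, 84.7 and 83.2 FPKM in the Mock libraries, 6.41, 6.55 and 6.96 in M1, and 7.7, 7.69 and 7.74 in I. The 3 groups did not overlap, and M1 lay 12.7-fold below Mock. The log2 change in M1 was −3.49 ± 0.033 (SE, limma adjusted p = 1.46e-14). In I, Fasn rose by 0.19 on the log2 scale over M1 (limma adjusted p = 0.000495) and still lay below Mock, with a log2 difference of −3.30. Acaca, the acetyl-CoA carboxylase that supplies malonyl-CoA, was at 14.9, 14.3 and 14.5 FPKM in Mock, 2.62, 2.59 and 2.81 in M1, and 1.86, 2.28 and 2.17 in I. The log2 change of Acaca in M1 was −2.08 ± 0.056 (limma adjusted p = 2.93e-11) and in I against M1 it fell by 0.25 (limma adjusted p = 0.00271). A processed pseudogene, Gm5182, shares 6118 bases with Acaca at 99.2% identity, so the Acaca level is uncertain if reads were divided between them.

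The desaturases, which place double bonds in fatty acyl chains, differed in how far they fell. Scd1 and Scd2, which make oleate and palmitoleate from saturated chains, were both lower in M1. Scd1 was at 46.7, 47.3 and 45 FPKM in Mock, 13.8, 14.1 and 14.3 in M1, and 10.5, 10.7 and 9.85 in I. Scd2, the most abundant of the 40 genes, was at 239, 239 and 242 FPKM in Mock, 128, 128 and 129 in M1, and 128, 133 and 137 in I. Scd1 was therefore lowest in I in every library, while Scd2 stood near the M1 level in I. The log2 change in M1 was −1.65 ± 0.036 for Scd1 (limma adjusted p = 6.81e-12) and −0.90 ± 0.027 for Scd2 (limma adjusted p = 6.47e-11). In I against M1, Scd1 fell by 0.41 (limma adjusted p = 3.51e-06) and Scd2 differed by 0.04 on the log2 scale, with a 95% interval of −0.02 to 0.10 (limma adjusted p = 0.189). With RLE scaling that Scd2 difference was 0.109 and called (limma adjusted p = 0.0037). Scd1 shares 1053 bases with Scd3 at 91.4% identity.

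Fads1 and Fads2, the desaturases of polyunsaturated chains, fell in both steps but in unequal parts. Fads1 was at 47.7 FPKM in each Mock library, 37.5, 38.8 and 38.5 in M1, and 20.1, 21.2 and 20.6 in I. Fads2 was at 72.8, 73.9 and 75.4 FPKM in Mock, 37.7, 39.7 and 39.5 in M1, and 28.7, 29.6 and 28.8 in I. No library of either gene overlapped another group. Fads1 fell by 0.31 on the log2 scale in M1 (limma adjusted p = 7.08e-07), which RLE scaling did not call (−0.003, limma adjusted p = 0.934), and lay lower in I than in M1 by 0.86 (limma adjusted p = 1.59e-09). Fads2 showed the opposite weighting, −0.91 in M1 (limma adjusted p = 1.04e-10) and −0.41 in I against M1 (limma adjusted p = 5.09e-07). The ratio of Fads1 to Fads2 within a library, which a single scaling factor per library does not change, was 0.633 to 0.656 in Mock, against 0.974 to 0.994 in M1 and 0.703 to 0.716 in I.

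The elongases, which lengthen acyl chains, fell in M1 as well. Elovl6, which acts on palmitate, was at 10.7, 9.55 and 10.8 FPKM in Mock, 2.33, 2.3 and 2.39 in M1, and 2.86, 2.95 and 2.59 in I. Every M1 library lay below every I library, and Mock lay 4.43-fold above M1. In I, Elovl6 rose by 0.18 on the log2 scale over M1 (limma adjusted p = 0.0144), a call lost without the second I library (limma adjusted p = 0.0535). Elovl6 shares 805 bases with the pseudogene Gm11295 at 97.4% identity. Elovl5, which acts on polyunsaturated chains, was at 51.6, 52.2 and 51.8 FPKM in Mock, 28.8, 27.4 and 26.8 in M1, and 24.5, 27.2 and 25 in I. Elovl5 fell in M1 by 0.88 on the log2 scale (limma adjusted p = 2.21e-09). M1 and I libraries overlapped for Elovl5, and its difference of −0.11 between them (limma adjusted p = 0.0322) was not called with RLE scaling (−0.046, limma adjusted p = 0.344).

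**Figure D2:**
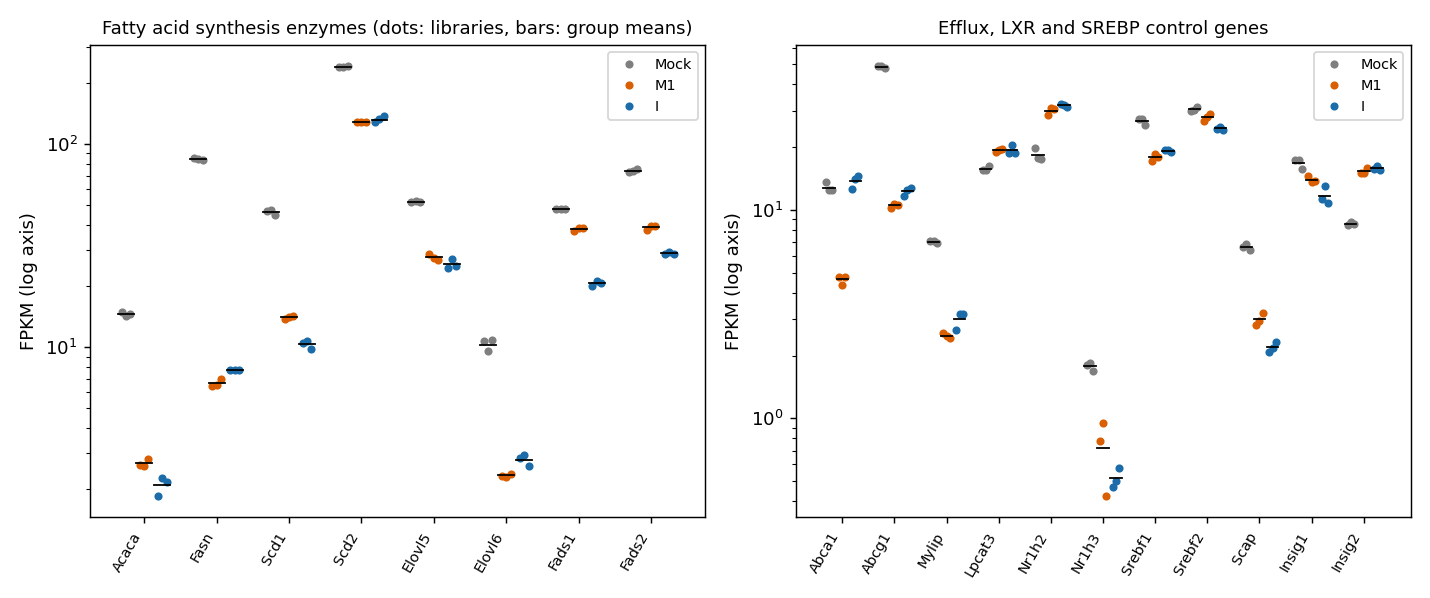
FPKM on a log axis in each library for the 8 fatty acid enzymes, the 2 efflux transporters, the 4 genes of LXR receptors and other LXR targets and the 5 genes of SREBP control, with points for libraries and lines for group means. Fasn drops from 83.2 to 85.8 FPKM in Mock to 6.41 to 6.96 in M1, and Abca1 lies between 12.4 and 14.5 FPKM in the Mock and I libraries and below 5 in M1.

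Sterol enzymes did not follow the fatty acid arm. The steps up to squalene were mixed in M1, with 3 of 8 enzymes higher, 3 lower and 2 not called. Among the enzymes after squalene, 5 of 10 were higher and 1 was lower, with the other 4 below the threshold. In I against M1, 7 of the 8 and 7 of the 10 were lower. Summed over the 18 enzymes, the level was 168, 172 and 169 FPKM in Mock, 195, 198 and 198 in M1, and 172, 167 and 166 in I. Mvd was the largest member by its mean over all libraries. In I, however, Sqle was larger, with a mean of 22.7 FPKM against 20.4 for Mvd.

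The early enzymes carry acetyl-CoA to mevalonate and its activated forms. Acat2, the cytosolic thiolase that opens the route, was at 9.89, 10.3 and 10.1 FPKM in Mock, 7.59, 6.45 and 7.3 in M1, and 6.28, 4.94 and 5.15 in I. Acat2 fell at both steps, by 0.45 (limma adjusted p = 0.000173) and by 0.33 (limma adjusted p = 0.00289) on the log2 scale, although RLE scaling took the M1 call away (−0.171, limma adjusted p = 0.0559). Its transcript shares 1477 bases with Acat3 at 97.7% identity, and 445 bases with Tcp1 at 98.7%. Hmgcs1 (ENSMUSG00000093930.2, chromosome 13, 119690379 to 119708260, plus strand), which makes HMG-CoA and whose promoter is printed above, was at 10.5, 10.7 and 10.4 FPKM in Mock, 10.8, 10.2 and 11 in M1, and 8.96, 8.83 and 9.39 in I. Mock and M1 overlapped for Hmgcs1 and all I libraries lay below both. The log2 difference of Hmgcs1 was 0.01 in M1 (95% interval −0.08 to 0.10, limma adjusted p = 0.782), or 0.298 with RLE scaling (limma adjusted p = 1.67e-05), and it was −0.21 ± 0.039 in I against M1 (limma adjusted p = 0.000734).

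Mevalonate is then phosphorylated by Mvk and Pmvk and decarboxylated by Mvd, and these neighbours in the route differed. Mvk was at 6.11, 6.2 and 5.96 FPKM in Mock, 5.19, 5.2 and 4.82 in M1, and 4.25, 4.09 and 3.79 in I. Its change in M1 was −0.23 on the log2 scale (limma adjusted p = 0.00105) but 0.042 with RLE and 0.11 with quantile scaling, so no direction is given for that step, whereas it fell in I against M1 by 0.27 (limma adjusted p = 0.000612). Pmvk moved the other way in M1, from 9.86, 9.68 and 10.3 FPKM in Mock to 17.4, 17.5 and 16.8, with 14.4, 12.7 and 13.8 in I. The Pmvk rise of 0.73 ± 0.045 on the log2 scale (limma adjusted p = 2.84e-08) was the largest among sterol enzymes. Mvd was at 18.6, 22.2 and 21.1 FPKM in Mock, 25.7, 28.6 and 27.9 in M1, and 20.3, 21.3 and 19.5 in I. Mvd thus rose in M1 by 0.40 (limma adjusted p = 0.000103) and lay lower in I by 0.41 on the log2 scale (limma adjusted p = 0.000186), with I and Mock libraries overlapping.

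Among the 18 sterol enzymes, Idi1, the isomerase that supplies the second isoprene building block, fell most in M1. It was at 11.5, 11.4 and 11.2 FPKM in Mock, 3.9, 3.67 and 3.63 in M1, and 2.33, 2.58 and 2.51 in I. The groups did not overlap, M1 lay 3.05-fold below Mock, and the log2 change was −1.39 ± 0.045 (limma adjusted p = 1.28e-10). In I, Idi1 fell by a further 0.45 on the log2 scale (limma adjusted p = 8.41e-06). Up to 684 bases of Idi1 are shared with pseudogenes, 1 of them at 100% identity, so its level is uncertain. Fdps, which joins isoprene units into farnesyl diphosphate, was listed at only 0.543 to 0.868 FPKM, or 42 to 93 fragments a library, and overlapped between all groups. The annotation places 26.7% of the Fdps exon length in the gene Gm43738 on the same strand, and how reads were assigned there is not given in the sources used here. Fdft1, the squalene synthase, was at 8.32, 9.07 and 8.94 FPKM in Mock, 14.1, 14.2 and 14 in M1, and 13.3, 12.6 and 12.4 in I. Fdft1 rose in M1 by 0.63 ± 0.04 on the log2 scale (limma adjusted p = 3.98e-08). However, 18.3% of its exon length lies opposite the cathepsin gene Ctsb, which rose from a mean of 410 ± 3.2 FPKM in Mock to 833 ± 15 in M1 (SD, n = 3) and stood at 660 ± 6.3 in I. The strand use of the counting is not given in the sources used here, so reads of Fdft1 and Ctsb cannot be told apart over that stretch.

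After squalene, Sqle was the single sterol enzyme that rose in both comparisons with FPKM as deposited, and Sc5d did so too with RLE scaling. Sqle, the epoxidase that commits squalene to sterols, was at 14.1, 15 and 13.5 FPKM in Mock, 18.2, 19.2 and 19.8 in M1, and 22.9, 22.5 and 22.6 in I. The groups were ordered without overlap, with log2 differences of 0.40 ± 0.043 in M1 (limma adjusted p = 3.64e-06) and 0.24 ± 0.043 in I over M1 (limma adjusted p = 0.000606). Lss, which closes the ring to lanosterol, was at 5.38, 5.16 and 5.04 FPKM in Mock, 6.63, 7.01 and 6.49 in M1, and 7.14, 6.83 and 6.79 in I. Lss rose in M1 by 0.32 (limma adjusted p = 3.18e-05), and its difference between I and M1 was 0.04 on the log2 scale (95% interval −0.06 to 0.13, limma adjusted p = 0.439). Sc5d, a desaturase late in the route, was at 7.63, 7.77 and 8.06 FPKM in Mock, 12.3, 12.2 and 12.8 in M1, and 14.3, 12.4 and 14 in I. Sc5d rose in M1 by 0.61 (limma adjusted p = 4.31e-07), and its difference of 0.11 in I over M1 was not called (limma adjusted p = 0.0684), though it was with RLE scaling (0.177, limma adjusted p = 0.00962).

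The remaining enzymes trim lanosterol to cholesterol, and in I most lay below M1. Dhcr7, the reductase of a final step, was at 7.95, 7.62 and 7.58 FPKM in Mock, 7.91, 8.28 and 9.17 in M1, and 4.39, 4.93 and 4.42 in I. All I libraries lay below all others, 1.84-fold below M1, and the log2 difference from M1 was −0.76 ± 0.057 (limma adjusted p = 9.51e-07). Nsdhl, which removes methyl groups from the sterol ring, was at 9.95, 10.2 and 10.6 FPKM in Mock, 11, 11.1 and 10.6 in M1, and 7.01, 7.33 and 7.25 in I. Its difference in I against M1 was −0.54 ± 0.038 on the log2 scale (limma adjusted p = 5.94e-07). On that scale this was the largest fall among sterol enzymes after that of Dhcr7. As ratios of mean FPKM, Nsdhl and Idi1 were level, both 1.51-fold below M1. In M1 against Mock neither gene was called, and both were called higher with RLE scaling, Dhcr7 by 0.393 and Nsdhl by 0.363.

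Cyp51, the lanosterol demethylase, was at 15.7, 14.5 and 14.9 FPKM in Mock, 13.7, 13.8 and 13.9 in M1, and 11.3, 11.1 and 10.8 in I. Its log2 difference in M1 was −0.12 (limma adjusted p = 0.0105) but 0.175 with RLE scaling (limma adjusted p = 0.00119), and it was −0.29 in I against M1 (limma adjusted p = 4.69e-05). The I libraries were thus the lowest for Cyp51, while its direction in M1 hung on the scaling. Msmo1, which acts in the removal of ring methyl groups, was at 14.2, 14.8 and 13.6 FPKM in Mock, 21.3, 20.3 and 20.4 in M1, and 18.2, 18.6 and 18.8 in I. Msmo1 rose in M1 by 0.51 (limma adjusted p = 1.04e-07) and lay lower in I by 0.15 on the log2 scale (limma adjusted p = 0.00386), the latter not called with RLE scaling (limma adjusted p = 0.0531). Hsd17b7, a sterol ketone reductase, was at 4.02, 4.5 and 4.45 FPKM in Mock, 5.12, 5.04 and 5.37 in M1, and 3.72, 4.16 and 3.41 in I. Hsd17b7 rose in M1 by 0.22 (limma adjusted p = 0.00735) and fell in I against M1 by 0.38 on the log2 scale (limma adjusted p = 0.000356). Ebp, a sterol isomerase, ranged over 10.9 to 12.4 FPKM in Mock and M1, which overlapped, and over 9.77 to 10.8 in I. Tm7sf2, a sterol reductase, was low at 1.00 to 1.95 FPKM throughout and shares 12.1% of its exon length with Vps51. Both were called lower in I than in M1, Ebp by 0.19 (limma adjusted p = 0.00727, but 0.0598 with RLE scaling) and Tm7sf2 by 0.32 (limma adjusted p = 0.00495).

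**Figure D3:**
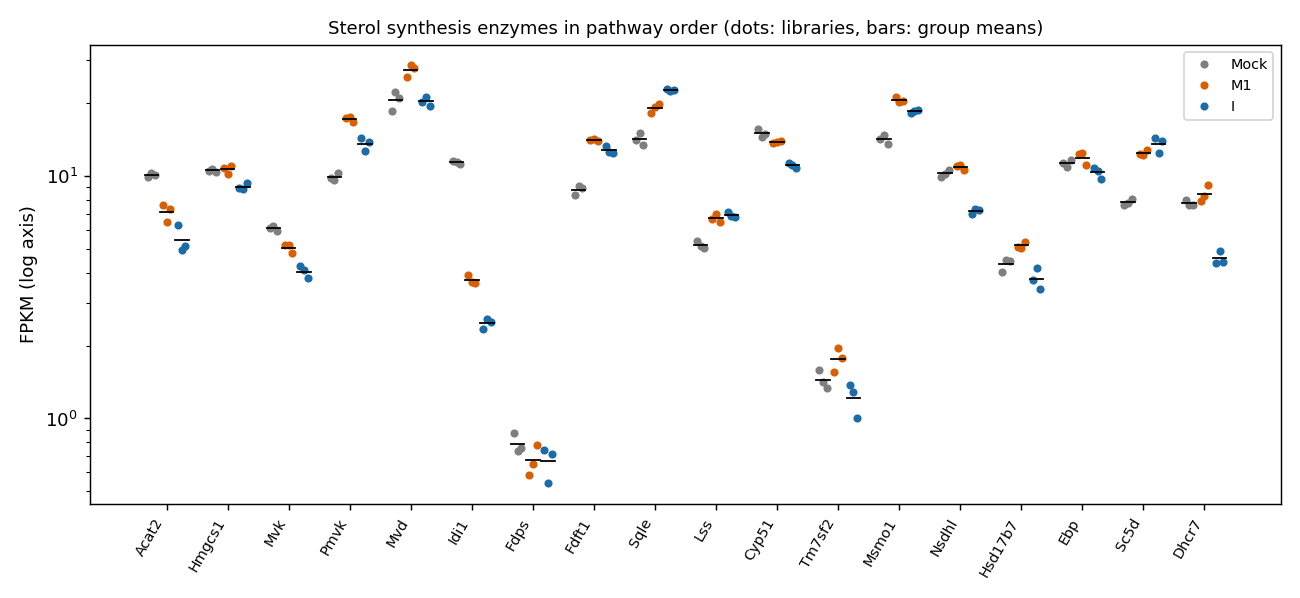
FPKM on a log axis in each library for the 18 sterol enzymes in pathway order, with points for libraries and lines for group means. Idi1 stands out with 11.2 to 11.5 FPKM in Mock and under 4 in M1 and I, Sqle is highest in I, and Dhcr7 and Nsdhl are lowest in I.

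Of the 5 genes of SREBP control, 4 were called lower in M1, although RLE scaling put Srebf2 and Insig1 above zero, and Insig2 rose. Over all tested genes 30.5% rose and 55.3% fell in M1. The median log2 change of the 5 was −0.25, near the −0.23 of all tested genes. Scap, the escort of SREBPs, was at 6.65, 6.84 and 6.4 FPKM in Mock, 2.79, 2.93 and 3.21 in M1, and 2.09, 2.17 and 2.33 in I. Scap fell at both steps without overlap, by 0.94 ± 0.054 (limma adjusted p = 1.65e-08) and by 0.31 on the log2 scale (limma adjusted p = 0.000432). The unnamed locus 5830462I19Rik lies opposite 13.2% of its exon length. Srebf1 was at 27.3, 27.4 and 25.5 FPKM in Mock, 17.2, 18.5 and 18 in M1, and 19.3, 19.3 and 18.9 in I. Srebf1 fell in M1 by 0.55 ± 0.037 (limma adjusted p = 6.4e-08), and its rise of 0.09 in I over M1 (limma adjusted p = 0.0428) was lost when any of 6 libraries was left out, with adjusted p up to 0.142 without the first M1 library. Srebf2 was at 29.8, 30.2 and 31.3 FPKM in Mock, 26.7, 27.9 and 28.9 in M1, and 24.5, 25.1 and 24.2 in I. Its difference in M1 was −0.13 on the log2 scale (limma adjusted p = 0.00572) but 0.178 with RLE scaling (limma adjusted p = 0.00052), and in I it was lower than in M1 by 0.17 (limma adjusted p = 0.00148). Within a library the ratio of Srebf1 to Srebf2 was 0.814 to 0.916 in Mock, against 0.623 to 0.662 in M1 and 0.767 to 0.789 in I.

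Insig1 and Insig2, which both retain the Scap complex, parted. Insig1, itself a known SREBP target, was at 17.3, 17.3 and 15.8 FPKM in Mock, 14.5, 13.6 and 13.7 in M1, and 11.3, 13 and 10.8 in I. Insig2 was at 8.42, 8.77 and 8.6 FPKM in Mock, 15, 15 and 15.9 in M1, and 15.7, 16.3 and 15.5 in I. Insig2 rose 1.78-fold in M1, by 0.76 ± 0.036 on the log2 scale (limma adjusted p = 3.26e-09), the largest rise of the 40 genes. Insig1 differed in M1 by −0.25 (limma adjusted p = 0.00221), against 0.043 with RLE scaling (limma adjusted p = 0.515), and fell in I against M1 by 0.24 on the log2 scale (limma adjusted p = 0.00515). The ratio of Insig1 to Insig2 was 1.84 to 2.05 in Mock, against 0.861 to 0.963 in M1 and 0.699 to 0.793 in I, so the groups were separate in every library.

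Of the genes that move or store sterols, Soat1, which esterifies cholesterol for storage in droplets, was at 28.2, 27.8 and 27.8 FPKM in Mock, 32.2, 34 and 32.5 in M1, and 36.2, 37.5 and 36.5 in I. Soat1 rose at each step, by 0.23 (limma adjusted p = 1.55e-05) and by 0.16 on the log2 scale (limma adjusted p = 0.000717). Stard4, a carrier of sterol between membranes, ranged over 7.85 to 9.2 FPKM in Mock, against 6.29 to 7.1 in M1 and 6.46 to 6.61 in I. Its fall of 0.31 on the log2 scale in M1 (limma adjusted p = 0.000432) was not called with RLE scaling (−0.034, limma adjusted p = 0.593). Acat1, the mitochondrial thiolase of ketone body and isoleucine metabolism, changed more in I against M1 than any of the 18 sterol enzymes. It was at 33.8, 35.2 and 35 FPKM in Mock, 23.2, 22.4 and 22.2 in M1, and 10.6, 9.69 and 9.68 in I. The groups were far apart, with log2 differences of −0.60 in M1 (limma adjusted p = 3.98e-08) and −1.11 ± 0.038 in I against M1 (limma adjusted p = 2.81e-09), a 2.27-fold step.

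The efflux transporters fell together in M1 and then parted in I. Abca1 (ENSMUSG00000015243.4, chromosome 4, 53030787 to 53159895, minus strand) loads cholesterol onto lipid-poor apolipoprotein A-I. It was at 13.6, 12.4 and 12.4 FPKM in Mock, 4.78, 4.38 and 4.74 in M1, and 12.6, 14 and 14.5 in I. All M1 libraries lay below all others, while Mock and I overlapped. The log2 change was −1.29 ± 0.058 in M1 (limma adjusted p = 1.96e-09) and 1.38 ± 0.058 in I over M1 (limma adjusted p = 1.17e-08), the largest rise of the 40 genes in that comparison. Between I and Mock, Abca1 differed by 0.09 on the log2 scale (95% interval −0.04 to 0.22, limma adjusted p = 0.161). With RLE scaling Abca1 was higher in I than in Mock by 0.445 (limma adjusted p = 1.84e-05), and without the first I library by 0.148 (limma adjusted p = 0.0251).

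Abcg1, which exports cholesterol to mature high-density lipoprotein, was at 49, 48.8 and 48 FPKM in Mock, 10.2, 10.7 and 10.6 in M1, and 11.6, 12.5 and 12.8 in I. Abcg1 fell 4.62-fold in M1, with a log2 change of −2.11 ± 0.038 (limma adjusted p = 1.58e-12). In I it rose over M1 by 0.21 ± 0.038 (limma adjusted p = 0.000665), a 1.17-fold step against 2.96-fold for Abca1, and lay below Mock by 1.90 on the log2 scale (limma adjusted p = 2.8e-12). The ratio of Abca1 to Abcg1 was 0.254 to 0.278 in Mock, against 0.408 to 0.47 in M1 and 1.08 to 1.14 in I, without overlap. The ratio of Soat1 to Abca1, storage against export, was 2.07 to 2.24 in Mock, against 6.73 to 7.75 in M1 and 2.51 to 2.88 in I.

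The receptors themselves differed in level and direction. Nr1h2, encoding LXR beta, was at 19.8, 17.8 and 17.5 FPKM in Mock, 28.5, 30.8 and 30.5 in M1, and 32.2, 32 and 31.3 in I. Nr1h2 rose in M1 by 0.68 on the log2 scale (limma adjusted p = 7.16e-08). Its difference between I and M1 was 0.08 (95% interval −0.02 to 0.19, limma adjusted p = 0.131), or 0.15 with RLE scaling (limma adjusted p = 0.0172). Nr1h3, encoding LXR alpha, was at 1.8, 1.85 and 1.69 FPKM in Mock, 0.779, 0.946 and 0.425 in M1, and 0.469, 0.498 and 0.579 in I. Nr1h3 fell in M1 by 0.71 ± 0.098 on the log2 scale (limma adjusted p = 3.64e-05). Its M1 and I libraries held only 19 to 52 fragments each and overlapped through the third M1 library, without which I lay below M1 by 0.297 (limma adjusted p = 0.00361). Mylip, an LXR-driven ubiquitin ligase that removes lipoprotein receptors, was at 7.08, 7.1 and 6.93 FPKM in Mock, 2.56, 2.48 and 2.44 in M1, and 2.66, 3.15 and 3.17 in I. Mylip fell in M1 by 1.20 (limma adjusted p = 2.62e-09) and rose in I over M1 by 0.19 on the log2 scale (limma adjusted p = 0.0117). Lpcat3, which places polyunsaturated chains in phospholipids, was at 15.6 to 16.3 FPKM in Mock, against 18.9 to 19.7 in M1 and 18.7 to 20.4 in I. Lpcat3 rose in M1 by 0.27 (limma adjusted p = 4.37e-05), and I and M1 overlapped. Emg1 lies opposite 10.2% of its exon length. The LXR targets thus did not move as a block in I, where Abca1, Abcg1 and Mylip were higher and Lpcat3 was not called.

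Summed levels set the arms against each other within a library, where a single scaling factor per library cancels, which quantile scaling is not. Fatty acid enzymes summed to 569, 568 and 571 FPKM in Mock, 257, 260 and 260 in M1, and 224, 234 and 233 in I. Scd2 made up 42.2% of that sum in Mock, 49.6% in M1 and 57.4% in I. The ratio of the sterol sum to the fatty acid sum was 0.294, 0.303 and 0.297 in Mock and 0.759, 0.76 and 0.76 in M1, a 2.55-fold difference. In I it was 0.767, 0.713 and 0.712, which overlapped M1. Without Scd2 the ratio was 1.5 to 1.51 in M1 and 1.65 to 1.79 in I. Efflux transporters summed to 62.6, 61.2 and 60.4 FPKM in Mock, 14.9, 15.1 and 15.4 in M1, and 24.2, 26.5 and 27.4 in I, with Abcg1 making up 79.2%, 69.4% and 47.3% of the group means. The ratio of sterol to efflux was 2.68 to 2.81 in Mock, against 12.9 to 13.1 in M1 and 6.07 to 7.11 in I, without overlap. Efflux to fatty acid synthesis was 0.106 to 0.11 in Mock, against 0.0581 to 0.0591 in M1 and 0.108 to 0.117 in I, where I and Mock overlapped. M1 thus stood apart from Mock in all 3 ratios of the arms, and I stood apart from M1 in both ratios that hold efflux. With 3 libraries against 3 the exact permutation test cannot give a two-sided p below 0.10, so no test is given for these ratios.

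**Figure D4:**
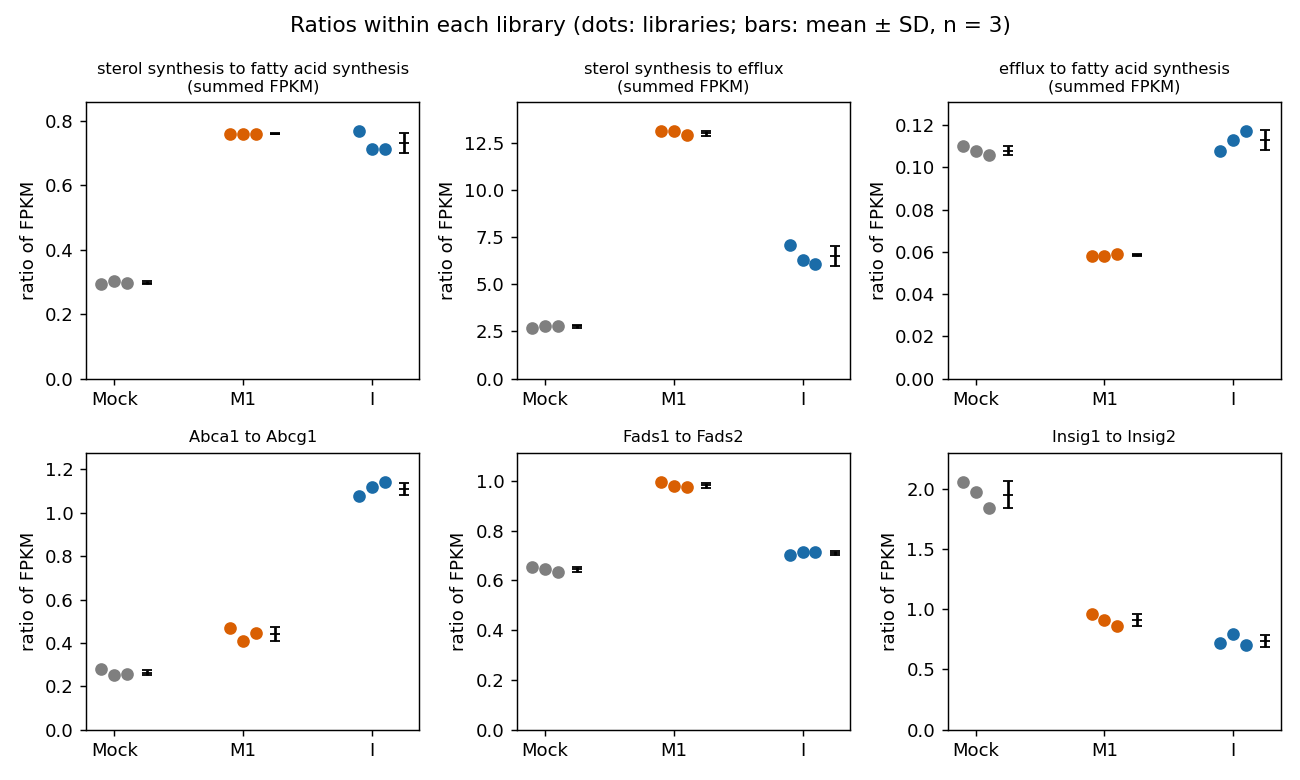
Ratios within each library of summed FPKM between the arms and of FPKM between related genes, on linear axes from 0, with points for libraries and bars for the group mean ± SD (n = 3). Sterol to fatty acid synthesis is 0.294 to 0.303 in Mock and 0.712 to 0.767 in M1 and I together, while Abca1 to Abcg1 is 1.08 to 1.14 in I.

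Other genes of these pathways, listed with earlier results of the data known, give the surroundings. The counts that follow stand beside 30.5% of all tested genes higher and 55.3% lower in M1 against Mock, and 24.9% higher and 39.3% lower in I against M1. These counts are from FPKM as deposited, and other scalings are not given for these lists. All 7 further genes listed for sterol and isoprenoid synthesis fell in M1 in that fit. The smallest log2 changes, −0.22 for Nus1 and −0.28 for Dhdds, were of the size that changed sign with RLE scaling for Mvk and Insig1. In I against M1, 1 of the 7 rose, 3 fell and 3 were not called. Their median log2 difference there was −0.10, against −0.07 for all tested genes and −0.28 for the 18 sterol enzymes above. Lbr, a sterol reductase that doubles as a nuclear lamina protein, went from a mean of 42.4 ± 0.82 FPKM in Mock to 10.6 ± 0.33 in M1 (SD, n = 3). Tmem97, a sterol-regulated membrane protein, went from 34.1 ± 2.1 FPKM in Mock to 11.5 ± 0.27 in M1 and 9.08 ± 0.32 in I. Of 14 genes of SREBP processing and sterol traffic, 5 rose and 8 fell in M1, and 3 rose and 9 fell in I against M1, the M1 counts lying near those shares. Gramd1a, a sterol carrier at membrane contacts, rose from 13.1 ± 0.39 FPKM in Mock to 53.8 ± 0.48 in M1 and 68.4 ± 0.79 in I. Npc2, which hands cholesterol out of lysosomes, stood at 83.8 ± 2.2, 243 ± 0.61 and 219 ± 4.8 FPKM in Mock, M1 and I. Mbtps1, the protease that first cuts SREBPs, fell from 13.7 ± 0.41 FPKM in Mock to 7.54 ± 0.052 in M1 and 6.14 ± 0.21 in I.

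Of 14 tested genes of fatty acid supply and activation, 5 rose and 7 fell in M1, again near the shares of all genes, and 1 rose and 9 fell in I against M1. Slc25a1, the citrate carrier that feeds the cytosol, rose in M1 from 26.1 ± 1.0 to 52.7 ± 2.3 FPKM, opposite to Fasn and Acaca. Acsl3, an acyl-CoA synthetase, fell from 14.8 ± 0.58 FPKM in Mock to 6.74 ± 0.18 in M1 and 5.55 ± 0.27 in I. Of 8 tested LXR partners and other LXR targets, 0 rose and 7 fell in M1 in the limma fit. In I against M1, 2 rose and 4 fell. Lpl, a lipoprotein lipase and known LXR target in macrophages, went from 74.9 ± 0.42 FPKM in Mock to 39.1 ± 1.0 in M1 and 5.93 ± 0.14 in I. Lpl in I was 6.59-fold below M1 (limma adjusted p = 9.88e-13), the opposite direction to Abca1. Pltp, a phospholipid transfer protein and another known LXR target, also fell at both steps, with means of 10.9 ± 0.67, 4.06 ± 0.3 and 2.52 ± 0.14 FPKM. Cyp27a1, which makes an oxysterol ligand of the LXRs, was at 19.3 ± 0.9, 6.61 ± 0.53 and 3.92 ± 0.19 FPKM in Mock, M1 and I.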

How the data were processed

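Poly(A) RNA was sequenced from 9 RAW264.7 libraries. The authors deposited FPKM per gene, a unit inferred here because no header names it. The submitters' processing notes name fastp 0.20.1 along with HISAT2 2.2.1, featureCounts 2.0.1 and GRCm38. Annotation and use of strand are not given in the sources used. All rows are above 0 in every library, so genes at 0 are not analysed here. FPKM multiplied by GENCODE vM21 exon length gave whole fragments, within 0.05, for 98.4% to 98.6% of values, which gave the depths.

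limma 3.58.1 (R 4.3.3) was fitted to log2(FPKM + 1) of the 9 libraries together, using group terms and an intensity trend. Rows with at least 0.5 FPKM in at least 3 libraries were tested (11156, with 1318 removed), and calls were made at a Benjamini-Hochberg adjusted p under 0.05 over all of them. Folds are ratios of mean FPKM. The log2 scale understates changes of low genes. Counts and medians describe the groups of genes, with no test over them. BLAST 2.17.0 searched transcripts for copies of at least 300 bases and 90% identity and found them for 6 of the 40 genes, and 13 share exon bases with another annotated gene. All 40 genes are named, and up to 3 of each further list by smallest p, except 1 gene not reported here. The genes, lists and filter were chosen with earlier results of these data known. A planned alignment of the Scd1 and Scd2 proteins was not run. The fit was tested on simulated data. The 18 alternatives were 3 scalings, another pseudocount, 2 filters, limma-voom on recovered fragments, a fit of the 2 groups compared, the replicate block and leaving out each library.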

Additional observations from a re-analysis of the deposited data

How the results depend on the processing

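Scaling moved several counts. For M1 against Mock, RLE scaling gave 19 of the 40 genes higher in place of 12. Sterol enzymes higher numbered 14 with RLE, 13 with upper quartile and 14 with quantile scaling in place of 8, and those lower 1, 2 and 2 in place of 4. Differences changed sign for Mvk (0.042 with RLE, 0.11 with quantile), Cyp51 (0.175 with RLE, 0.077 with upper quartile, 0.094 with quantile), Srebf2 (0.178 with RLE, 0.076 with upper quartile) and Insig1 (0.043 with RLE). For I against M1, sterol enzymes higher numbered 2 with RLE, upper quartile and quantile scaling and with limma-voom, in place of 1. For I against Mock, quantile scaling gave 17 of the 40 genes higher in place of 10. Sterol enzymes higher numbered 10 with RLE and 12 with quantile scaling in place of 6, and those lower 5 and 5 in place of 8. The cause was not tested. In all 18 alternatives no fatty acid enzyme was called higher in M1 than in Mock, and both efflux transporters were higher in I than in M1.

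Leaving out each library gave 14 to 14 sterol enzymes lower in I than in M1, 1 to 2 higher, and 1 to 3 fatty acid enzymes higher. Without the second I library these last 2 counts were 2 and 1. Same-numbered libraries deviated from their group means with correlations of −0.115 to 0.047, so the numbers were not taken as pairs. The replicate block gave 7 genes higher and 23 lower in I against M1, in place of 8 and 23, the call lost being Srebf1 (0.095, limma adjusted p = 0.0504). Fdft1 could not be recovered as fragments and was left out of limma-voom. Depth limits Fdps, Tm7sf2 and Nr1h3, at no more than 93, 188 and 115 fragments a library.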

Other observations

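Both pairs of desaturase genes lie close together on chromosome 19. Scd1 and Scd2 are 87.6 kb apart with 1 protein-coding gene, Scd4, between them, and Fads1 and Fads2 are 81.1 kb apart with 0 between them (GRCm38, GENCODE vM21). Neighbours changed by unequal amounts in both pairs. The ratio of Scd1 to Scd2 was 0.186 to 0.198 in Mock, against 0.107 to 0.111 in M1 and 0.0721 to 0.082 in I, lower at each step without overlap. The ratio of Elovl5 to Elovl6, elongases on different chromosomes, was 4.81 to 5.47 in Mock, against 11.2 to 12.4 in M1 and 8.57 to 9.66 in I.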
